A study of Mus musculus with 12 samples.

Results

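The genes described are 10 inflammatory mediators of the mouse, the CC chemokines Ccl2, Ccl3, Ccl4, Ccl5 and Ccl7, the CXC chemokines Cxcl1 and Cxcl12, and the cytokines Il1b, Tnf and Il6. They were chosen by name, with earlier results of these data known, and are 10 of the 55573 genes in the count table. Polyadenylated RNA was sequenced from 12 libraries of astrocyte-enriched cortical cultures, made from C57BL6/J pups at postnatal day 0 to 2 and kept in medium with horse serum. Every culture carried a lentivirus, either pCIG3-ACREB, which adds the dominant-negative CREB inhibitor ACREB, or the control virus pCIG3, whose CMV promoter drives an IRES-GFP cassette with no ACREB. After 5 days of transduction the cultures were bathed for 30 min in vasoactive intestinal peptide (VIP) at 0.5 µM or in PBS alone, and were lysed after 90 min of recovery. The 4 groups were ACREB with VIP, ACREB with PBS, control virus with VIP and control virus with PBS, with 3 libraries each. The labels do not say whether the libraries numbered 1 to 3 are separate cultures or animals, so a p-value here reflects the spread among these libraries alone, and that spread may be technical.

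Chemokines are small secreted proteins that draw leukocytes along a gradient through G protein-coupled receptors, while IL-1β, TNF and IL-6 switch on inflammatory programmes in their target cells. In the brain, microglia and macrophages are the best known source of IL-1β, TNF, CCL3 and CCL4, and activated astrocytes can secrete CCL2, CXCL1, CXCL12 and IL-6. NF-κB is the classic activator of most of these genes. VIP raises cAMP through Gs-coupled receptors, and cAMP signalling through CREB is known both to limit NF-κB output and to induce some cytokine genes.

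Of the 10 genes, 6 had an entry in the RefSeq promoter table for GRCm38.p6, namely Il1b, Tnf, Il6, Ccl3, Cxcl1 and Cxcl12, each with 250 bases before and 50 bases after the gene's start. The 3 printed here are Il1b, which had the largest difference with VIP, and Il6 and Cxcl1, whose windows held the most matches to the motifs searched. They lie at chr2:129371090-129371389 on the minus strand for Il1b, chr5:30012864-30013163 on the plus strand for Il6 and chr5:90890995-90891294 on the plus strand for Cxcl1. Capitals mark the motif matches.
Il1b: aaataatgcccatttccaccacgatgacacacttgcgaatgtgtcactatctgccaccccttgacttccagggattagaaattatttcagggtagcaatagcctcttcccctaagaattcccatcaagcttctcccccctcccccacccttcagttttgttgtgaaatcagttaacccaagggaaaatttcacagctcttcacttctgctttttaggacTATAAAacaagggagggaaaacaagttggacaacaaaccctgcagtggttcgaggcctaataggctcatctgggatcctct
Il6: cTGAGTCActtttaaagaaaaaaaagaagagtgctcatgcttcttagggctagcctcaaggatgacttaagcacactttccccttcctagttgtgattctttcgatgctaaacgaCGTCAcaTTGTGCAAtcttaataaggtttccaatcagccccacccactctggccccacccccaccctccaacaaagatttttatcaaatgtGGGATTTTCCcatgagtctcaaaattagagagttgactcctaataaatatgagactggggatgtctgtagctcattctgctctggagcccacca
Cxcl1: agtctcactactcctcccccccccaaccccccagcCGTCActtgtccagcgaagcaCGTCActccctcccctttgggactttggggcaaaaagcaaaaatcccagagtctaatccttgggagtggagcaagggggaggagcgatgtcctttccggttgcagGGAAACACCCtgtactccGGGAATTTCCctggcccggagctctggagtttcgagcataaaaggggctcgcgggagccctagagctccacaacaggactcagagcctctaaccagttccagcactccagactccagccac

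Motifs were searched on both strands of each window. The full CRE, TGACGTCA, which CREB binds, was in none of the 6 windows and in 1.79% of all 32851 promoters of the table. The 5-base core of the CRE, TGACG, occurred once in Il6, once in Cxcl12 and at 2 places in Cxcl1, and 20.8% of all promoters held it. The NF-κB motif searched (GGG, 2 bases of any kind, then TTTCC) was matched 44 bases before the start of Il6, and 89 and 71 bases before that of Cxcl1, against 1.63% of all promoters with a match. Il6 also held the AP-1 motif TGAGTCA (5.2% of promoters) and the C/EBP motif TTNNGCAA (10.8%). In the Il1b window the only match was the TATA motif TATAAA, 31 bases before the start. Tnf held TATAAA 29 bases before its start, and 13.6% of all promoters held this motif. The ETS core GAGGAA was found in Tnf and Ccl3, against 28.3% of all promoters. A match is a description of these letters and not evidence of binding.

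All 10 genes were expressed at low levels. Levels are in CPM, read counts scaled to a common library size after TMM adjustment. The highest mean over the 12 libraries was 5.00 CPM, for Cxcl12, while the median of the 16761 genes that passed edgeR's filter on low counts was 20.4 CPM, a scale that does not allow for gene length. Of the 10, 7 passed that filter. Ccl7, Cxcl1 and Il6 did not, with 72, 75 and 59 reads summed over all 12 libraries. Levels between genes are compared per kilobase of exon. On that scale Ccl4 came first at a mean of 6.70 CPM per kb, followed by Ccl3 at 6.09, Ccl2 at 3.95 and Ccl5 at 3.77. Then came Tnf at 1.95 CPM per kb, Il1b at 1.64, Cxcl12 at 0.61, Ccl7 at 0.41, Cxcl1 at 0.18 and Il6 at 0.11. Neighbours in this order overlapped in their range over libraries, except Ccl5 and Tnf, whose ranges did not. Il1b varied most, with a coefficient of variation of 95.6% over the 12 libraries, and Tnf least, at 17.7%.

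**Figure D1:**
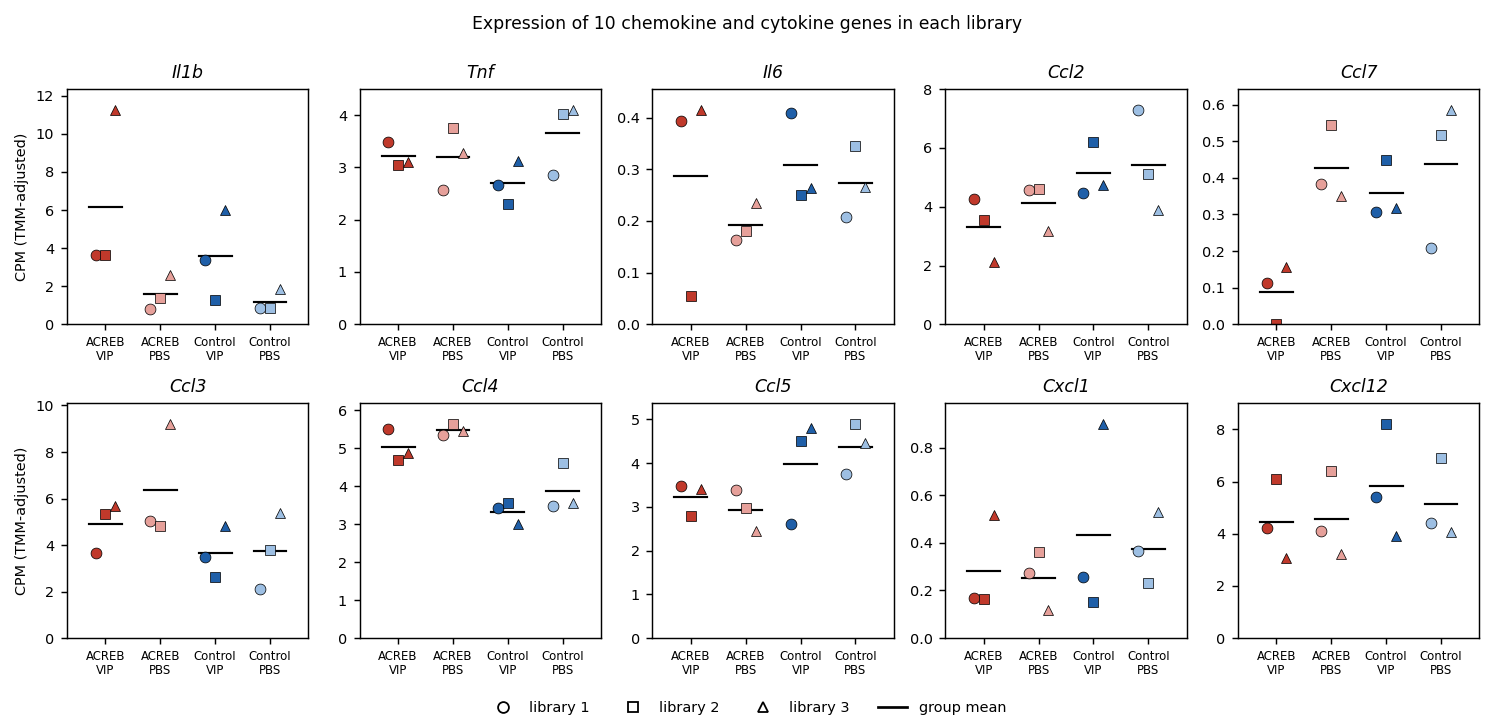
CPM (y axis, linear, each panel with its own scale) of the 10 genes in each of the 12 libraries, by group; symbols give the library number and bars the group mean. Il1b is higher in the VIP library than in the PBS library of every same-numbered pair, Ccl4 lies higher in all 6 ACREB libraries than in all 6 control virus libraries, and Il6, Ccl7 and Cxcl1 stay below 0.9 CPM.

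Total counts were 16571398 to 20529238 per library. In a principal component analysis control PBS library 2 lay far from the rest on the first component (81.2, with 38.1% of the variance), and ACREB PBS library 2 came next at 34.6. GC content and exon length together accounted for 42.6% of the variance of the departure of control PBS library 2 from the mean log2 CPM of all 12 libraries. Same-numbered libraries departed from their group means together, so a fit with the library number as a block is given beside a result wherever it changes the call. Markers of the labelled cell type were high, with 12 astrocyte markers summing to 6733 to 7829 CPM per library and Gfap at a mean of 1298 CPM. Markers of microglia and macrophages were also present. All 20 passed the filter and none was at 0, with means of 227 CPM for Cx3cr1, 329 CPM for Csf1r, 37.1 CPM for Aif1, 44.2 CPM for Tmem119 and 21.0 CPM for P2ry12. Fibroblast and mural markers summed to 4819 to 8520 CPM per library, with Acta2 at a mean of 2149 CPM. Oligodendrocyte lineage markers summed to 1155 to 1860 CPM, neuron markers to 307 to 508 CPM and endothelial markers to 32.5 to 64.5 CPM. Which of these cells the reads of the 10 genes came from was not tested.

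Il1b stood higher with VIP and Ccl4 with ACREB. Il1b averaged 4.87 ± 3.45 CPM with VIP and 1.39 ± 0.713 CPM with PBS, and Ccl4 averaged 5.24 ± 0.378 CPM with ACREB and 3.60 ± 0.528 CPM with control virus (SD, n = 6 each). Each of these differences passed the test in the fit with the library number as a block and not in the one without it. The chemokines Ccl3 and Ccl5, the CCR2 ligand Ccl2, Tnf and Cxcl12 passed in neither fit. In the edgeR fit without a block, no gene of the set was called in any comparison at an adjusted p under 0.05. The counts were 0 of 7 for VIP against PBS with control virus (0.489% of all genes tested were called), 0 of 7 with ACREB (0.0119%) and 0 of 7 over the mean of both viruses (0.728%). For ACREB against control virus they were 0 of 7 with PBS (0.0358%), 0 of 7 with VIP (0.0537%) and 0 of 7 over the mean of both treatments (0.674%). The interaction, which subtracts the VIP response of control virus cultures from that of ACREB cultures, called 0 of 7 and 0% of all genes. At an unadjusted p under 0.05 each VIP comparison held 1 of 7 members, Il1b, with control virus (6.42% of all genes), with ACREB (1.92%) and over both viruses (6.67%). The same level held Ccl4 and Ccl5 for ACREB with PBS (5.3% of all genes), Ccl4 for ACREB with VIP (5.69%), 4 of 7 members, Ccl2, Ccl3, Ccl4 and Ccl5, for ACREB over both treatments (9.47%) and 0 for the interaction (1.2%). DESeq2 called Il1b for VIP over both viruses (1.89% of genes called) and Ccl4 for ACREB over both treatments (2.71%). It called 0 members for VIP with control virus (1.53%) or ACREB (0.161%), for ACREB with PBS (0.668%) or VIP (0.799%) and for the interaction (0%).

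With the replicate number as a block, edgeR called Il1b for VIP with control virus (1 of 7 members, 1.63% of all genes) and over both viruses (1 of 7, 2.25%). It called 0 of 7 for VIP with ACREB (0.0776% of all genes). Ccl4 was called for ACREB over both treatments (1 of 7, 3.45%). No member was called for ACREB with PBS (0.221%), for ACREB with VIP (0.364%) or for the interaction (0%). With GC and length offsets beside the block, Il1b was called for VIP with control virus (3.3% of all genes), with ACREB (0.274%) and over both viruses (4.22%), and Ccl4 and Ccl2 for ACREB over both treatments (9.4%). With no filter on low counts Il1b was called for VIP over both viruses (0.548% of 30838 genes). The median log2 fold change of the 7 members, without a block, was -0.17 for VIP over both viruses, beside -0.01 over all genes tested, and 0.03 for ACREB over both treatments, beside 0.00.

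Il1b (ENSMUSG00000027398, chromosome 2, 129364570 to 129371139, minus strand, GRCm38) encodes interleukin-1β, the inflammasome-processed cytokine that signals through the type 1 IL-1 receptor. Its level was 3.65, 3.65 and 11.2 CPM in ACREB VIP libraries, against 0.82, 1.39 and 2.58 CPM in ACREB PBS libraries. With control virus it was 3.38, 1.30 and 6.02 CPM in VIP libraries, against 0.83, 0.86 and 1.86 CPM in PBS libraries. With ACREB the VIP and PBS libraries did not overlap (3.45% of genes tested were higher without overlap), while with control virus VIP library 2 lay below PBS library 3. Within the same library number, Il1b was higher with VIP in 6 of 6 pairs, as were 3.66% of all genes tested, by 2.63 to 4.46 times with ACREB and by 1.51 to 4.06 times with control virus. These levels rest on 15 to 217 reads per library.

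Over both viruses the log2 fold change of Il1b was 1.77 (SE 0.45), with a Benjamini-Hochberg adjusted p of 0.148 by edgeR's quasi-likelihood test without a block. In the fit with the block Il1b rose by a log2 fold change of 1.72 (SE 0.22, adjusted p = 0.0023), and this call was also made with each of the 12 libraries left out in turn, at log2 fold changes of 1.55 to 1.87. Within ACREB cultures the log2 fold change was 1.96 (SE 0.63, adjusted p = 1.00; with the block 1.89, SE 0.31, adjusted p = 0.059). With control virus it was 1.58 (SE 0.65, adjusted p = 0.679). There the block gave 1.55 (SE 0.33, adjusted p = 0.042), a call that was kept when library 2 of ACREB PBS, control PBS or control VIP was left out, and lost without any one of the other 9 libraries (adjusted p up to 0.196). The interaction was 0.38 (SE 0.90, adjusted p = 1.00) and did not pass the test with the block either (SE 0.46).

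Il1b has an antisense gene on the opposite strand, Il1bos, which held 18 reads over all 12 libraries against 703 for Il1b. The strand setting of the counting is not given in the sources used here, so part of the reads of either gene could belong to its partner.

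The summed CPM of the 20 microglia and macrophage markers moved with the library number, at 1762 to 2403 CPM in the 4 libraries numbered 1, 1829 to 3510 CPM in those numbered 2 and 3493 to 4548 CPM in those numbered 3. By group it was 2312 to 4548 CPM in ACREB VIP libraries, 2403 to 4304 CPM in ACREB PBS libraries, 1762 to 3698 CPM in control VIP libraries and 1863 to 3493 CPM in control PBS libraries. In bulk RNA fewer cells of a type and less RNA per cell cannot be told apart. For VIP over both viruses the markers had a median log2 fold change of -0.06, with 5 of 20 positive, beside 46.7% of all genes tested, and 0 called with or without the block. Per 1000 CPM of these markers, Il1b was at 1.58, 1.11 and 2.47 CPM in ACREB VIP libraries, against 0.34, 0.40 and 0.60 CPM in ACREB PBS libraries. With control virus the same measure was 1.92, 0.71 and 1.63 CPM in VIP libraries, against 0.45, 0.34 and 0.53 CPM in PBS libraries. On this scale all 6 VIP libraries lay above all 6 PBS libraries, at 1.57 ± 0.613 and 0.443 ± 0.105 CPM (SD, n = 6 each). The scale was chosen after the values were seen, and the share of all genes that separate so on it was not computed. In plain CPM the VIP libraries (1.30 to 11.2) and the PBS libraries (0.82 to 2.58) overlapped. A fit with the log2 marker sum as a covariate, added after the values were seen, gave Il1b a log2 fold change of 1.85 for VIP over both viruses (edgeR adjusted p = 0.010, the only member called, with 0.716% of all genes).

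**Figure D2:**
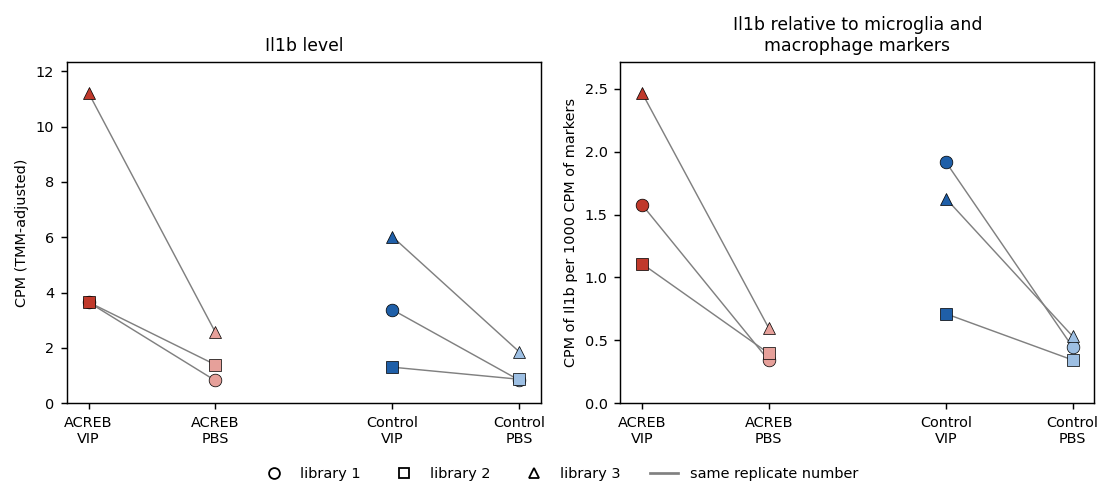
Il1b in CPM (left y axis) and in CPM per 1000 CPM of summed microglia and macrophage markers (right y axis), by group, with a line joining the VIP and PBS libraries of the same virus and number. All 6 lines slope down from VIP to PBS, and on the right all 6 VIP libraries (0.71 or more) lie above all 6 PBS libraries (0.60 or less). On the left VIP and PBS libraries overlap, and the share of all genes that separate as on the right was not computed.

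Tnf (ENSMUSG00000024401, chromosome 17, 35199381 to 35202007) encodes tumour necrosis factor, which acts through Tnfrsf1a and Tnfrsf1b. Its level was 3.48, 3.05 and 3.10 CPM in ACREB VIP libraries, against 2.56, 3.75 and 3.28 CPM in ACREB PBS libraries. With control virus it was 2.66, 2.30 and 3.11 CPM in VIP libraries, against 2.86, 4.02 and 4.09 CPM in PBS libraries. The libraries overlapped in both comparisons. Tnf was lower with VIP in 3 of 3 pairs with control virus, as were 15% of all genes tested, at a log2 fold change of -0.44 (SE 0.22, edgeR adjusted p = 0.78). With ACREB the value was 0.01 (SE 0.22, adjusted p = 1.00), and the interaction was 0.45 (SE 0.31, adjusted p = 1.00). None of these values passed the test.

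Il6 (ENSMUSG00000025746, chromosome 5, 30013114 to 30019981) encodes interleukin-6, which signals through Il6ra and Il6st. Its counts were 7, 1 and 8 reads in ACREB VIP libraries, 3, 3 and 4 in ACREB PBS libraries, 8, 5 and 5 in control VIP libraries and 4, 6 and 5 in control PBS libraries. The 6 VIP libraries together held 34 reads and the 6 PBS libraries 25. A two-sided exact permutation test on log2(CPM + 2) gave p = 0.355 for VIP against PBS and p = 0.426 for ACREB against control virus. Each was 0.512 after Benjamini-Hochberg adjustment over the 6 tests made of the 3 genes that did not pass the filter. No change in Il6 was found at this depth, and the smallest change that the test could detect was not computed.

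Ccl2 and Ccl7 lie next to each other on chromosome 11 and encode ligands of CCR2, the receptor that brings monocytes into inflamed tissue. Ccl2 (ENSMUSG00000035385, chromosome 11, 82035571 to 82037453) was at 4.27, 3.54 and 2.12 CPM in ACREB VIP libraries, against 4.58, 4.60 and 3.16 CPM in ACREB PBS libraries. In control virus cultures it was at 4.45, 6.20 and 4.75 CPM with VIP, against 7.27, 5.12 and 3.87 CPM with PBS. Across the virus comparison Ccl2 was lower with ACREB in 6 of 6 same-numbered pairs, as were 7.76% of all genes tested, and with VIP the ACREB and control virus libraries did not overlap (7.06% of genes were lower without overlap). Over both treatments it averaged 3.71 ± 0.971 CPM with ACREB and 5.28 ± 1.25 CPM with control virus (SD, n = 6 each), a log2 fold change of -0.52 (SE 0.21, edgeR adjusted p = 0.435; with the block -0.53, SE 0.15, adjusted p = 0.092). For VIP over both viruses the log2 fold change was -0.20 (SE 0.21, adjusted p = 0.88). Ccl2 overlaps Gm17268 on the opposite strand, which held 0 reads in all 12 libraries, against 999 for Ccl2.

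Ccl7 (ENSMUSG00000035373, chromosome 11, 82045712 to 82047525) had 2, 0 and 3 reads in ACREB VIP libraries, 7, 9 and 6 in ACREB PBS libraries, 6, 9 and 6 in control VIP libraries and 4, 9 and 11 in control PBS libraries. The ACREB VIP group thus held 5 reads in all (95% exact Poisson interval 1.62 to 11.7, counting error only), and each other group 21 to 24. For VIP against PBS, 26 and 46 reads over 6 libraries each, a two-sided exact permutation test gave p = 0.048, which did not hold after adjustment over the 6 tests (adjusted p = 0.286). For ACREB against control virus, 27 and 45 reads, the exact permutation p was 0.188 (adjusted p = 0.512).

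Ccl3, Ccl4 and Ccl5 encode chemokines that attract monocytes and T cells, and CCL3 and CCL5 bind CCR1. Ccl4 (ENSMUSG00000018930, chromosome 11, 83662584 to 83664683), the gene of macrophage inflammatory protein 1β, was at 5.50, 4.69 and 4.86 CPM in ACREB VIP libraries, against 3.43, 3.55 and 3.01 CPM in control VIP libraries. With PBS it was at 5.35, 5.63 and 5.44 CPM in ACREB libraries, against 3.48, 4.60 and 3.56 CPM in control virus libraries. All 6 ACREB libraries lay above all 6 control virus libraries, as they did for 0.811% of the genes tested. Across both treatments the log2 fold change was 0.54 (SE 0.12, edgeR adjusted p = 0.076). Ccl4 rose with ACREB in the fit with the block (0.55, SE 0.11, adjusted p = 0.027). The call was kept when library 2 of control PBS or of control VIP was left out, and lost without any one of the other 10 libraries (adjusted p up to 0.088). Without control PBS library 2 the fit with no block also called it, at 0.62 (adjusted p = 0.033, with 1.1% of all genes called). For VIP over both viruses Ccl4 had a log2 fold change of -0.17 (SE 0.12, adjusted p = 0.88).

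Ccl3 (ENSMUSG00000000982, chromosome 11, 83647844 to 83649355), the gene of macrophage inflammatory protein 1α, was at 3.65, 5.34 and 5.69 CPM in ACREB VIP libraries, against 3.48, 2.65 and 4.80 CPM in control VIP libraries. With PBS it was at 5.02, 4.84 and 9.19 CPM in ACREB libraries, against 2.13, 3.79 and 5.36 CPM in control virus libraries. Groups overlapped under both treatments, although Ccl3 was higher with ACREB in 6 of 6 same-numbered pairs, as were 8.44% of all genes. The log2 fold change over both treatments was 0.59 (SE 0.26, edgeR adjusted p = 0.492; with the block 0.60, SE 0.16, adjusted p = 0.072).

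The microglia and macrophage markers stood higher with ACREB too. All 20 had a positive log2 fold change for ACREB over both treatments (median 0.43), as did 51.1% of all genes tested. Of the 20, 0 were called without the block (0.674% of all genes) and 12 with it (3.45%), among them Csf1r, Cx3cr1, Trem2 and C1qa. Over the 12 libraries, which share library numbers across groups, the Pearson correlation with the summed markers was 0.85 for Ccl3, 0.34 for Ccl4, 0.54 for Il1b and -0.77 for Ccl2, given as a description. Per 1000 CPM of the markers Ccl3 was at 1.68 ± 0.364 CPM with ACREB and 1.48 ± 0.281 CPM with control virus, and Ccl4 at 1.66 ± 0.530 and 1.57 ± 0.512 CPM (SD, n = 6 each), with overlapping libraries in both. With the log2 marker sum as a covariate, the log2 fold change for ACREB over both treatments was 0.23 for Ccl3 (edgeR adjusted p = 0.752), 0.59 for Ccl4 (adjusted p = 0.101) and -0.26 for Ccl2 (adjusted p = 0.687), with 0 of 7 members and 0.662% of all genes called. Without this term the values were 0.59 for Ccl3, 0.54 for Ccl4 and -0.52 for Ccl2. The markers themselves stood higher with ACREB, so the marker sum and the virus cannot be fully told apart in this fit. The part of the markers in these differences was not tested.

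**Figure D3:**
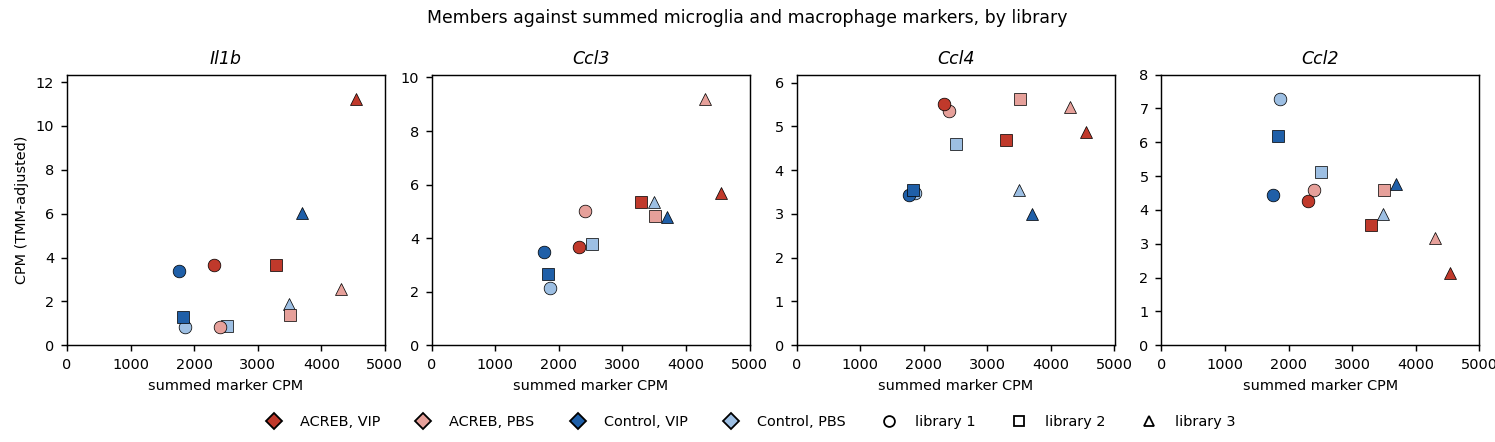
CPM of Il1b, Ccl3, Ccl4 and Ccl2 (y axes) against the summed CPM of 20 microglia and macrophage markers (x axes), 1 point per library, coloured by group and shaped by library number. Ccl3 is higher and Ccl2 lower in libraries with a high marker sum. Il1b lies higher with VIP than with PBS in same-numbered libraries of the same virus, and Ccl4 lies higher with ACREB than with control virus. The marker sums are also higher with ACREB in same-numbered libraries of the same treatment. The part of the markers in these differences was not tested.

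Ccl5 (ENSMUSG00000035042, chromosome 11, 83525778 to 83530518), the gene of RANTES, was at 3.48, 2.78 and 3.41 CPM in ACREB VIP libraries, against 2.61, 4.50 and 4.80 CPM in control VIP libraries. With PBS it was at 3.38, 2.96 and 2.46 CPM in ACREB libraries, against 3.74, 4.89 and 4.46 CPM in control virus libraries. The groups did not overlap with PBS (4.44% of genes tested were lower without overlap) and overlapped with VIP. Over both treatments the log2 fold change was -0.43 (SE 0.18, edgeR adjusted p = 0.43; with the block -0.42, SE 0.17, adjusted p = 0.243). Ccl5 thus lay on the opposite side of 0 from Ccl3 and Ccl4, without passing the test.

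Cxcl1 (ENSMUSG00000029380, chromosome 5, 90891241 to 90893115) encodes a neutrophil attractant that binds CXCR2. It had 3, 3 and 10 reads in ACREB VIP libraries, 5, 6 and 2 in ACREB PBS libraries, 5, 3 and 17 in control VIP libraries and 7, 4 and 10 in control PBS libraries. The exact permutation p was 0.803 for VIP against PBS and 0.338 for ACREB against control virus (adjusted p = 0.803 and 0.512, two-sided). No change in Cxcl1 was found at this depth, and the smallest detectable change was not computed. Cxcl12 (ENSMUSG00000061353, chromosome 6, 117168535 to 117181367) encodes the homeostatic chemokine that binds CXCR4. It was at 4.21, 6.11 and 3.05 CPM in ACREB VIP libraries, 4.09, 6.41 and 3.22 CPM in ACREB PBS libraries, 5.42, 8.19 and 3.91 CPM in control VIP libraries and 4.42, 6.90 and 4.09 CPM in control PBS libraries. In every group library 2 was the highest and library 3 the lowest. Cxcl12 was lower with ACREB in 6 of 6 same-numbered pairs, as were 7.76% of all genes, with a log2 fold change over both treatments of -0.28 (SE 0.25, edgeR adjusted p = 0.84; with the block SE 0.10, adjusted p = 0.169).

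**Figure D4:**
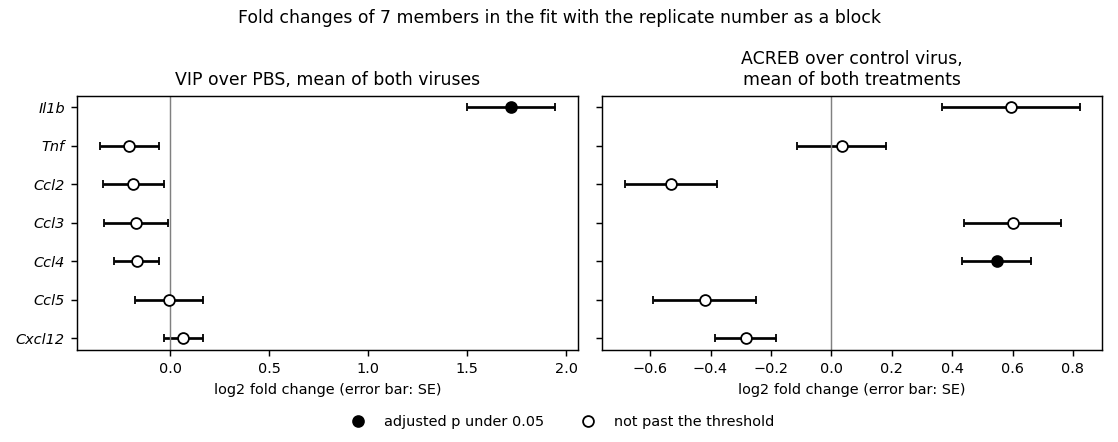
Log2 fold change (x axis, error bar SE) of the 7 members that passed the filter on low counts, in the edgeR fit with the replicate number as a block, for VIP over PBS (left) and ACREB over control virus (right). Filled points have an adjusted p under 0.05, which only Il1b reaches on the left (1.72) and only Ccl4 on the right (0.55), and the 2 x axes differ in scale.

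The rest of the pathway was examined through lists of other chemokine ligands, other cytokines, receptors, NF-κB genes, and genes of cytokine processing and mRNA control. In these lists the fit without a block called 0 genes for VIP or ACREB over the other factor. Among 29 other chemokine ligands, 11 were tested, and their median log2 fold change was -0.05 for VIP and 0.19 for ACREB. Those with the highest mean CPM were Cx3cl1, the membrane-bound fractalkine, and Cxcl14, at mean levels of 132 and 66.5 CPM. Of the 11, edgeR with the block called 0 for VIP (2.25% of all genes tested) and 5 for ACREB (3.45%). Ccl6 (0.95, adjusted p = 0.015), Ccl9 (0.93, adjusted p = 0.041) and Pf4 (0.53, adjusted p = 0.043), chemokines known from mouse myeloid cells or platelets, rose with ACREB. Cxcl10, an interferon-induced CXCR3 ligand (-0.43, adjusted p = 0.045), and Ccl27a (-0.51, adjusted p = 0.017) fell. Genes on the opposite strand overlap Ccl6 (E230016K23Rik), Cxcl10 (Art3) and Ccl27a (Il11ra1). As the strand setting of the counting is not given, part of their reads could belong to these partners. The microglia and macrophage markers described above moved in the same direction as the 3 that rose, and their part was not tested. These 5 genes, and those named below as called with the block, were named after their values were seen.

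Of 42 other cytokines, 17 were tested, with median log2 fold changes of -0.04 for VIP and 0.04 for ACREB. Csf1, the microglial growth factor, had the highest mean, 391 CPM, and Tgfb2 followed at 75.1 CPM. With the block 1 of the 17 was called for VIP (2.25% of all genes tested) and 0 for ACREB (3.45%). The 1 called was Il11, a cytokine of the IL-6 family, which rose with VIP by a log2 fold change of 1.81 (edgeR adjusted p = 0.037). Il11 was at 2.13, 0.98 and 0.98 CPM in ACREB VIP libraries, against 0.44, 0.12 and 0.70 CPM in ACREB PBS libraries. With control virus Il11 was at 3.63, 2.75 and 1.64 CPM in VIP libraries, against 0.31, 0.98 and 0.69 CPM in PBS libraries. The VIP and PBS libraries did not overlap with either virus. With ACREB 3.45% of all genes tested were higher without overlap, and the share with control virus is not given here. The 11 receptors tested of 16, led by Il6st at 601 CPM and Tnfrsf1a at 134 CPM, had 0 calls for VIP or ACREB with or without the block, and median log2 fold changes of -0.03 for VIP and 0.04 for ACREB.

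Of 22 genes of NF-κB signalling and feedback, all tested, the median log2 fold change was 0.04 for VIP and -0.01 for ACREB. With the block 1 of the 22 was called for VIP (2.25% of all genes tested) and 0 for ACREB (3.45%). The 1 called was Nfkbie, which encodes the NF-κB inhibitor IκBε (0.61 for VIP, edgeR adjusted p = 0.030). Nfkb1, with the highest mean of the list, 89.1 CPM, had 0.29 (adjusted p = 0.055 with the block), and Irak1 followed at 88.5 CPM. Of 16 NF-κB target genes outside the cytokines, 14 were tested. With the block 1 of these was called for VIP (2.25% of all genes tested) and 1 for ACREB (3.45%). Ptgs2, the inducible cyclooxygenase and itself a known cAMP-responsive gene, rose with VIP in the block fit (1.41, adjusted p = 0.0033), and Saa3, an acute phase gene, rose with ACREB (1.97, adjusted p = 0.025). Saa3 was at 1.12, 2.34 and 7.04 CPM in ACREB VIP libraries, 0.87, 1.15 and 4.10 CPM in ACREB PBS libraries, 0.82, 0.45 and 0.42 CPM in control VIP libraries and 0.52, 0.63 and 0.64 CPM in control PBS libraries. The NF-κB targets with the highest means, Vcam1 at 271 CPM and C3 at 199 CPM, were not called (VIP 0.20 and 0.03, ACREB -0.19 and -0.10 without the block). Of 11 genes of cytokine processing and mRNA control, 10 were tested. With the block 1 was called for VIP (2.25% of all genes tested) and 0 for ACREB (3.45%). The 1 called was Zfp36l1, which encodes an mRNA decay factor (VIP 0.35, edgeR adjusted p = 0.047). Zfp36l1 overlaps Gm26669 on the opposite strand, so part of its reads could belong to that gene.

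A list of 10 cAMP-responsive genes was chosen with earlier results of these data known, so its counts are a description and not an independent check. Of these, 7 rose with VIP over both viruses without a block (0.728% of all genes called). Among them were the nuclear receptor Nr4a2 (log2 fold change 2.92, edgeR adjusted p = 1.46e-06) and the deiodinase Dio2 (2.92, adjusted p = 0.0015). All 10 had an interaction below 0 (median -0.77), that is a smaller VIP response with ACREB, with 0 called. Of all genes tested, 52.1% had an interaction above 0. The interaction of Il1b was 0.38 (SE 0.90), and its sign is not settled. With 1 library left out it ran from -0.38 to 0.98 and changed sign in 3 of 12 fits. The difference between Il1b and this list was not tested.

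Over the 12 libraries, the genes whose log2(CPM + 2) was most correlated with that of Il1b, of 12421 compared, were Mxi1 (Pearson r 0.94), Usp12 (0.87) and Kif26a (0.87). For Ccl3 they were Arrb2 (0.92), Trim55 (0.91) and Rasal3 (0.91), and for Ccl4 Sult4a1 (0.94), Smg6 (0.91) and Hectd4 (0.90). Those nearest to Ccl2 were Mrps18c (0.88), Kcnj6 (0.88) and Entpd5 (0.86), to Ccl5 Peg12 (0.88), Fmc1 (0.87) and Cdca7 (0.86), and to Tnf Ap1m1 (0.91), Mical1 (0.89) and Cers1 (0.88). Cxcl12 was closest to Adam12 (0.97), Thy1 (0.94) and Crtac1 (0.94). Among the members themselves, correlations of log2(CPM + 2) ran from -0.79 between Ccl2 and Ccl3 to 0.55 between Ccl2 and Cxcl12. These are descriptions over libraries that share treatment, virus and library number. The genes outside the set were picked as the highest of 12421 correlations over 12 libraries. How high a value this choice alone gives was not computed.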

How the data were processed

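The values the authors deposited are raw counts of each Ensembl gene in each of the 12 libraries, neither normalized nor pooled. The submitters' processing notes name the GRCm38 (mm10) build, and the tools Trimmomatic 0.39, HTSeq 0.11.2, STAR 2.7.1a and edgeR (R 3.6.1). How strand was set in counting, and which annotation release was used, is not given in the sources used here. Total counts were 16571398 to 20529238 per library. Symbols and exon lengths came from the GENCODE annotation of GRCm38, matched for 55394 of 55573 identifiers.

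The comparisons used edgeR 4.0.16 under R 4.3.3 (TMM, filterByExpr with a minimum count of 10, quasi-likelihood test, 1 mean per group over all 12 libraries, residual degrees of freedom 8). DESeq2 1.42.0 was an alternative. P-values were two-sided and Benjamini-Hochberg adjusted over the 16761 genes tested, with a threshold of 0.05. "Over both viruses" and "over both treatments" mean the average of the 2 contrasts. Each SE was derived from edgeR's F statistic (size of the log2 fold change over the root of F). CPM used TMM-adjusted library sizes, with a pseudocount of 2 for log2 values. Genes under the filter were compared by exact permutation of 6 against 6 libraries. Sums of reads carry counting error only. The scripts were tested on simulated data.

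Replicate numbers from the labels were checked for pairing. Departures from the group means correlated in 18 of 18 same-numbered pairs (0.132 to 0.679, all above 0.1), and for 12 of 12 libraries the best match carried the same number, so the block was treated as a pairing. Alternatives were the block, DESeq2, RLE scaling, no filter, GC and length offsets, each contrast's own libraries, another pseudocount of 0.5 and each library left out. A marker sum as covariate, the block with each library left out, and CPM relative to the markers were chosen after seeing the data.

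The members and lists were chosen with earlier results of these data known. All 10 members are named. Of other lists, the rule named genes called in the fit without a block, up to 4 per list and contrast, or otherwise the 2 with the highest mean CPM of each chemokine, cytokine, receptor and NF-κB list. For markers it named those with the highest mean CPM and 6 fixed genes, and for likeness the 3 best correlated genes with a mean of at least 2 CPM.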

Additional observations from a re-analysis of the deposited data

How the results depend on the processing

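In the edgeR fit without a block the count of members called was 0 in all 7 comparisons. For VIP over both viruses the count was 1, Il1b, with the replicate block, DESeq2, no filter on low counts, GC and length offsets with the block, and the marker covariate. With control virus it was 1, Il1b, with the block, with or without GC and length offsets, and with ACREB 1, Il1b, with these offsets and the block. For ACREB over both treatments it was 1, Ccl4, with the block and with DESeq2, and 2, Ccl4 and Ccl2, with offsets and block. The cause of these differences was not tested. Leaving out 1 library gave counts of 0 to 1 for ACREB over both treatments, and 0 in the other 6 comparisons. With the block and 1 library left out the counts were 0 to 1 for VIP with control virus, 0 to 1 for VIP with ACREB, 1 over both viruses in every such fit and 0 to 2 for ACREB over both treatments, where Ccl3 was also called without control PBS library 2, and Ccl2 without control VIP library 1. The replicate block changed no other call of a member. Over all genes, the count for VIP over both viruses was 240 higher and 137 lower with the block, 221 and 95 with DESeq2 and 97 and 25 without either. For ACREB over both treatments it was 292 and 286 with the block, 196 and 259 with DESeq2 and 40 and 73 without either.

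The values that changed sign did not pass the test with or without the change. For VIP with control virus Ccl5 was at 0.0090 with GC and length offsets and 0.014 with these and the block, and for VIP over both viruses at -0.0065 with the block. The marker covariate gave 0.12 for Ccl3 with VIP and control virus. With ACREB against control virus under PBS it gave 0.0038 for Cxcl12 and -0.17 for Il1b, and over both treatments -0.076 for Il1b and -0.083 for Tnf. Leaving out 1 library gave log2 ranges across 0 for VIP with control virus of -0.27 to 0.19 (Ccl2), -0.33 to 0.30 (Ccl3), -0.27 to 0.092 (Ccl5) and -0.14 to 0.46 (Cxcl12). With ACREB the VIP ranges were -0.33 to 0.28 (Cxcl12) and -0.13 to 0.14 (Tnf), and over both viruses -0.062 to 0.11 (Ccl5), -0.086 to 0.24 (Cxcl12) and -0.039 to 0.048 (Cxcl1, mean difference of log2(CPM + 2)). For ACREB under PBS they were -0.49 to 0.11 (Cxcl12) and -0.11 to 0.90 (Il1b), and over both treatments -0.045 to 0.099 (Tnf). For the interaction they were -0.51 to 0.0052 (Ccl2), -0.67 to 0.039 (Ccl3), -0.048 to 0.17 (Ccl4), -0.52 to 0.10 (Cxcl12) and -0.38 to 0.98 (Il1b). Depth limits Il6, Cxcl1 and Ccl7, which had 0 to 17 reads per library.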
